A study of Mus musculus with 12 samples.

Results

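Gene expression in CT26 cells, an established mouse colon carcinoma line, was compared between a drug-loaded and an empty coated carrier, using RNA sequencing 24 h after treatment. The groups were taken from the treatment label: libraries N7, N8 and N9 are labelled NP-D@M and libraries N4, N5 and N6 are labelled NP@M, so 6 of the 12 libraries of the series entered the comparison. The 4 groups of the series, each of 3 libraries, are PBS (N1 to N3), the 2 compared here, and NP-D@MP (N10 to N12), and all share the cell line and the 24 h period. The labels do not spell out these names; the title of the series speaks of a nanodrug that is coated with the membrane of engineered cancer cells, is directed at CDKs and accompanies antibody therapy against PD-L1. No drug, dose, structure or carrier composition is named in the labels, and the reading of NP-D@M as the drug-loaded and NP@M as the empty coated particle is the working name of the comparison. Separate cultures are not stated for the libraries of a group, and the p-values therefore reflect the spread between these libraries alone, which may be technical. Retinas are mentioned in the extraction protocol, which does not match the cell line.

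Cyclin-dependent kinases (CDKs) are protein kinases that need a cyclin partner. Those of the cell cycle drive DNA replication and entry into mitosis, and those of transcription phosphorylate RNA polymerase II, which lets it leave the promoter and elongate. Messages also differ in how fast they decay: those of immediate early genes and of many regulators are known to be short-lived, and those of ribosomal proteins and mitochondrial enzymes to be stable. No decay rate was measured here. In bulk RNA, fewer cells of a kind and less RNA per cell cannot be told apart.

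All values are FPKM, fragments per kilobase of gene model and per M reads of a library size that the authors set. FPKM times gene length gave whole reads for every value, and the 12 libraries held 12.8 to 15.7 M reads each. The library size behind the deposited values was 29.6 to 31.1 M reads with NP@M and 7.25 to 8.4 M with NP-D@M, so 1 read in a 1 kb gene was worth 0.0322 to 0.0338 FPKM with NP@M and 0.119 to 0.138 FPKM with NP-D@M. Each gene was therefore tested on 3 scalings, namely the deposited FPKM, FPKM rescaled to each library's own reads (the table scale), and FPKM scaled to a common median ratio. A gene is said here to have risen or fallen only where limma called it in the same direction, at a Benjamini-Hochberg adjusted p under 0.05, on all 3. Libraries N7 and N8 stood apart from the other 10 at low levels. They had 2199 and 2174 of the 12584 genes at 0 reads, beside 579 to 1211 in the others and 1038 in N9. The most frequent read number above 0 was 9 in N7 and 6 in N8, and 1 or 2 in the others. Genes with 1 to 3 reads numbered 256 in N7, 275 in N8 and 808 in N9. The split was not confined to low genes. Messages encoded in the mitochondrial genome held 12.9, 14.1 and 8.89% of the reads in N7, N8 and N9 and 7.26 to 10.1% with NP-D@MP. Across genes, N9 correlated at r = 0.978 with N7 and with N8 and at 0.991 to 0.992 with the NP-D@MP libraries. The cause was not tested. Whether reads of low genes were removed from N7 and N8 before deposit was not tested, so their 0 values are given as listed and not as absence. Counts were repeated with N9 alone in its group, an alternative chosen after these values were seen.

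The reads with NP-D@M were held by far fewer genes. Ranked from the most abundant gene downwards, 50% of the reads of a library lay in 809, 818 and 821 genes with NP@M and in 117, 115 and 128 genes with NP-D@M. The groups did not overlap, and their means were 816 ± 6.25 and 120.0 ± 7 genes (SD, n = 3). In the same way 25% of the reads lay in 149, 155 and 153 genes with NP@M and in 17, 16 and 22 with NP-D@M, and 75% lay in 2641, 2601 and 2641 genes and in 547, 547 and 574. With 3 libraries against 3, an exact two-sided permutation test cannot give a p below 0.1, and these counts reach that smallest value.

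**Figure D1:**
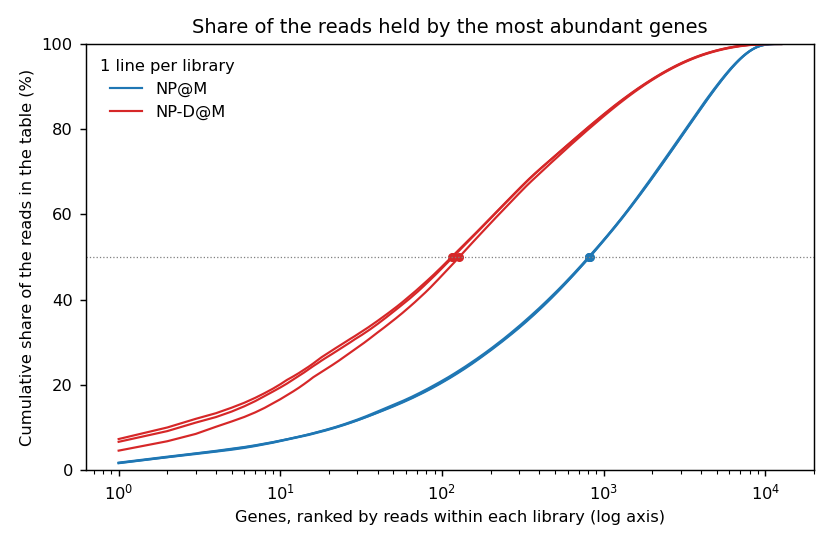
Cumulative share of the reads in the table (%, linear axis) against the number of genes ranked by reads (log axis), 1 line for each NP@M and NP-D@M library, with a point where a line passes 50%. The NP@M points lie between 809 and 821 genes and the NP-D@M points between 115 and 128.

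Of 10101 tested genes, 1765 rose and 4815 fell with NP-D@M. On the deposited FPKM, 4222 genes (41.8%) were called higher and 4815 (47.7%) lower. On the table scale, 1765 (17.5%) were higher and 7124 (70.5%) lower, and scaled to a common median ratio 4139 (41%) were higher and 4876 (48.3%) lower. All calls of a rise thus rest on the strictest scaling, the table scale, and all calls of a fall on the deposited values, so 17.5% risen and 47.7% fallen is the background for every group of genes below. The median log2 change of all tested genes was -0.19 on the deposited scale and -1.46 on the table scale, and 1425 genes (14.1%) were called higher on the former and lower on the latter. In 6406 genes (63.4%) the groups lay apart in the same direction on all 3 scalings. The filter of 1 FPKM in at least 3 libraries also bears on the counts. Of the tested genes, 803 reached it only in the NP-D@M and NP-D@MP libraries, 323 of them among the risen, and 2156 only in the PBS and NP@M libraries, 2080 of them among the fallen. Of the 7112 genes that reached it on both sides, 1442 (20.3%) rose and 2728 (38.4%) fell.

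With so many calls, size separates genes better than the call. On the table scale, 914 of the risen genes had a log2 change of at least 1 and 206 of at least 2. On the deposited scale, 2864 of the fallen genes had a log2 change of -1 or below, 600 of -2 or below and 77 of -3 or below. With N9 alone in its group, 1780 genes rose and 4602 fell, of which 1601 and 4499 were among those above. Log2 changes are of FPKM + 1, which understates the change of low genes, and folds are ratios of group means.

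The 12 largest rises were ranked with ribosomal proteins (cytosolic and mitochondrial), genes of the mitochondrial genome, histones, small RNAs, pseudogene symbols and predicted loci left out. Among the 12 were 4 genes of mitochondria, beside genes of metal and calcium binding and of apoptosis. Uqcr11 (ENSMUSG00000020163, chromosome 10, 80402997 to 80406830, GRCm38, the build of all coordinates here), a small subunit of respiratory complex III, stood at 11, 6.53 and 8.94 FPKM with NP@M and 299, 206 and 765 FPKM with NP-D@M. The groups lay far apart, and N9 was the highest library. The gene rose 47.9-fold on the deposited scale and 13.3-fold on the table scale (log2 changes 5.23 ± 0.38 and 3.48 ± 0.37, SE; limma Benjamini-Hochberg adjusted p = 1.03e-07 and 1.81e-06). Leaving out N9 took its NP-D@M mean from 423 to 252 FPKM. Ppp1r14b (ENSMUSG00000056612, chromosome 19, 6975048 to 6977324), an inhibitor of protein phosphatase 1, stood at 69.8, 66.4 and 62.7 FPKM with NP@M and 2062, 1800.5 and 3203 FPKM with NP-D@M. It rose 35.5-fold and 9.93-fold on those scales, the groups were far apart, and 37.6% of its 50-base words are found in further genes too, so its level is uncertain.

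Tomm7, a small subunit of the pore that takes proteins into mitochondria, rose from 3.94, 3.21 and 3.78 to 92.5, 75.7 and 253 FPKM. N9 was again the highest library, and without it the group mean was 84.1 FPKM in place of 140. Cox8a, a subunit of respiratory complex IV, rose from 69.8, 57.2 and 68.3 to 1348, 1411 and 2884 FPKM, 28.9-fold deposited and 8.06-fold on the table scale. Uqcc2, an assembly factor of complex III, rose from 18.1, 15 and 15.5 to 368, 268 and 514 FPKM. These 3 mitochondrial genes had no overlap between the groups. Bok (ENSMUSG00000026278, chromosome 1, 93685660 to 93695764), a pro-apoptotic member of the BCL2 family, stood at 7.78, 5.16 and 6.61 FPKM with NP@M and 162, 171 and 227 FPKM with NP-D@M. All 3 NP-D@M libraries exceeded all 3 NP@M libraries, and the gene rose 28.7-fold and 8.02-fold (log2 changes 4.64 ± 0.17 and 2.92 ± 0.17, SE; limma adjusted p = 3.81e-10 and 5.54e-09).

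Outside mitochondria, S100a4, a calcium-binding protein, rose from 26.4, 16.1 and 22.3 to 632, 542 and 678 FPKM, and 56% of its 50-base words are shared with other genes. Atox1, a copper chaperone, rose from 30.1, 22.7 and 25.9 to 601, 445 and 751 FPKM, and Gchfr, which regulates the first enzyme of tetrahydrobiopterin synthesis, rose from 5.05, 6.12 and 8.18 to 182, 172 and 257 FPKM. Cops9, a small subunit of the COP9 signalosome, rose from 4.2, 3.6 and 3.59 to 104, 76.9 and 211 FPKM. All 4 had groups that lay apart. Snrpf, a core protein of spliceosomal ribonucleoproteins, rose from 4.47, 3.76 and 3.96 to 89.8, 53.8 and 270.5 FPKM, and leaving out N9 took its NP-D@M mean from 138 to 71.8 FPKM. Prl2c2, a placental hormone gene of the prolactin family, had the largest change of the 12 on the table scale (log2 change 3.91 ± 0.26, SE). It went from 0.0598, 0.372 and 0.443 to 36.3, 52.1 and 33 FPKM, and 89.5% of its 50-base words are shared with other genes, so the reads cannot be assigned to it with confidence.

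The 12 largest falls, ranked with the same classes left out, included genes of stress responses, nuclear import and immediate early regulation. Trib3 (ENSMUSG00000032715, chromosome 2, 152337422 to 152344032), a pseudokinase gene of the stress response, stood at 60, 48.9 and 51 FPKM with NP@M and 1.57, 1.3 and 2.24 FPKM with NP-D@M. The groups lay apart and the fall was 31.3-fold on the deposited scale and 112-fold on the table scale (log2 changes -4.34 ± 0.15 and -5.79 ± 0.13, SE; limma adjusted p = 2.16e-10 and 9.20e-12). Herpud1, which acts in degradation at the endoplasmic reticulum, fell from 44.1, 43.2 and 43.8 to 1.33, 0.827 and 2.14 FPKM, 30.5-fold and 109-fold lower on those scales. Fosb, an immediate early transcription factor, fell from 28.8, 24.3 and 22.1 to 0.611, 0.508 and 0.819 FPKM, 38.8-fold and 139-fold lower. Nfe2l2 (ENSMUSG00000015839, chromosome 2, 75675513 to 75704641), which encodes NRF2, the transcription factor of the antioxidant response, fell from 36, 38.5 and 36.2 to 2.95, 1.53 and 2.09 FPKM. In each of these genes the groups lay far apart.

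Kpna2, an importin that carries proteins into the nucleus, had 3969, 3736 and 3859 reads in N4, N5 and N6 and 0, 0 and 4 in N7, N8 and N9. No fold is given for it because of the 0 values, and 92.4% of its 50-base words are shared with other genes. Myadm, a membrane protein, fell from 59, 62.9 and 58.2 to 2.71, 1.63 and 1.39 FPKM, and Steap1, a protein of the plasma membrane, fell from 119.7, 114 and 110 to 7.09, 6.41 and 6.81 FPKM. Mat2a, which makes the methyl donor S-adenosylmethionine, fell from 44.6, 47.7 and 43.9 to 2.34, 1.6 and 3.56 FPKM. Arf6, a small GTPase of membrane traffic, fell from 34.3, 33.9 and 33.1 to 1.94, 0.539 and 1.83 FPKM, and Tubb4b, a beta tubulin, fell from 128, 113 and 121 to 10, 8.52 and 13 FPKM. All 5 measured in FPKM here had groups that did not overlap. Akirin2, a nuclear regulator of inflammatory transcription, fell from 29.4, 33.4 and 36.4 to 0.348, 2.34 and 0.854 FPKM, and leaving out N8 took its NP-D@M mean from 1.18 to 0.601 FPKM. Pnrc2, a nuclear receptor coactivator that also acts in RNA decay, fell from 27.8, 30.8 and 26.2 to 0.377, 1.68 and 1.82 FPKM.

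**Figure D2:**
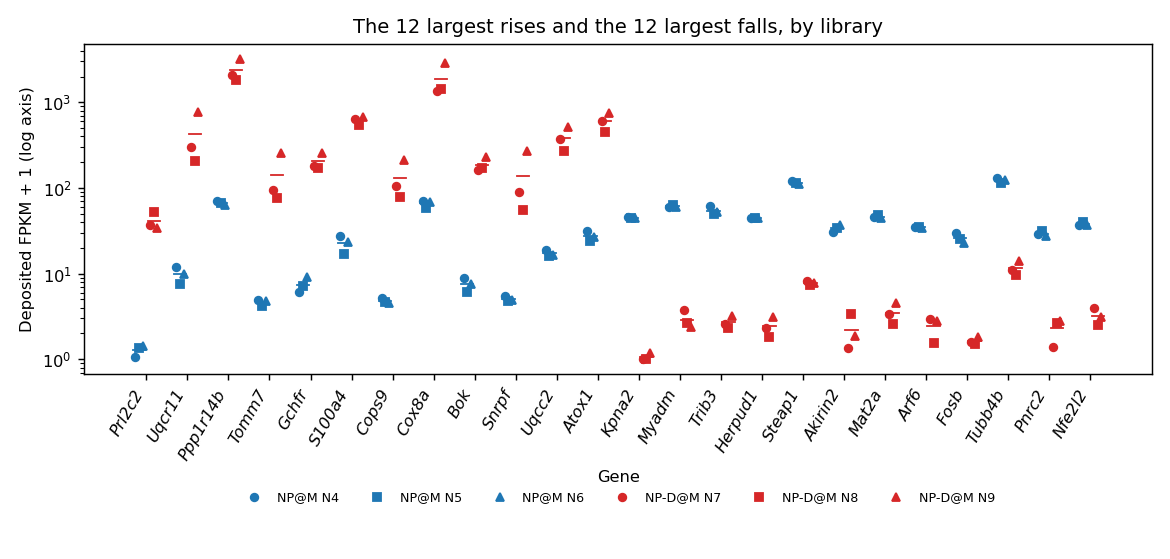
Deposited FPKM + 1 (log axis) of the 12 largest rises and the 12 largest falls, ranked by the log2 change on the table scale, with 1 point per library and a bar at each group mean. Ribosomal proteins, genes of the mitochondrial genome, histones, small RNAs, pseudogene symbols and predicted loci were left out of the ranking. The groups lie apart in all 24 genes, since the rule that picked them asks for this, and N9 is the highest library for Uqcr11 (765 FPKM) and Snrpf (270 FPKM).

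Among the kinases of the cell cycle, 1 rose and the others fell. Cdk1 (ENSMUSG00000019942, chromosome 10, 69335146 to 69352938), which drives entry into mitosis, stood at 18.5, 17.3 and 16 FPKM with NP@M and 1.23, 2.18 and 1.36 FPKM with NP-D@M. No NP-D@M library came near an NP@M library, and the fall was 10.9-fold deposited and 38.7-fold on the table scale (log2 changes -2.84 ± 0.14 and -4.24 ± 0.12, SE; limma adjusted p = 3.32e-09 and 2.51e-11). Cdk2, which acts at the start of S phase, fell from 4.92, 4.26 and 4.51 to 1.32, 1.55 and 1.53 FPKM, 3.11-fold and 11.1-fold lower. Cdk6, a partner of D-type cyclins in G1, fell from 5.48, 5.57 and 5.66 to 3.35, 3.29 and 3.31 FPKM, 1.68-fold and 5.99-fold lower. Cdk4 (ENSMUSG00000006728, chromosome 10, 127063534 to 127067920), the other kinase of D-type cyclins, stood at 84.9, 72.9 and 74 FPKM with NP@M and 563, 547 and 631 FPKM with NP-D@M. It rose 7.51-fold and 2.1-fold, with no overlap (log2 changes 2.89 ± 0.10 and 1.07 ± 0.10, SE; limma adjusted p = 3.16e-10 and 3.50e-07).

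Of the 15 genes for cell cycle CDKs, cyclins and their small CKS partners, all tested, 1 rose and 10 fell, against 17.5% and 47.7% of all genes. The list's median log2 change was -0.85 on the deposited scale and -2.32 on the table scale, beside -0.19 and -1.46 for all tested genes. The cyclins of S phase and mitosis fell: Ccna2 went from 26.1, 26.6 and 25 to 2.04, 1.42 and 2.12 FPKM (13.9-fold and 49.7-fold lower) and Ccnb1 from 30.8, 30.1 and 30.3 to 5.08, 3.27 and 2.2 FPKM (8.65-fold and 30.8-fold lower). About 42% of the 50-base words of Ccnb1 occur in other genes. Ccne1 and Ccne2, the cyclins of Cdk2 in late G1, fell from 5.66, 5.4 and 5.38 to 1.92, 2.69 and 3.34 FPKM and from 3.78, 4.62 and 4.2 to 1.33, 1.42 and 1.95 FPKM. Cks2 fell from 75.3, 77.5 and 64.8 to 11.4, 3.39 and 8.8 FPKM, and in all of these the groups lay apart.

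The remaining 4 members depended on the scaling. Ccnd1, the main D-type cyclin of many carcinoma lines, stood at 90.8, 87.5 and 85 FPKM with NP@M and 252, 247 and 247 FPKM with NP-D@M. Its log2 change was 1.49 on the deposited scale, -0.33 on the table scale and -0.99 after quantile normalization, so its direction turns with the scaling. Ccnb2, which unlike Ccnb1 did not fall, stood at 27.8, 26.9 and 28.3 FPKM with NP@M and 97.4, 98.9 and 97.5 FPKM with NP-D@M, with log2 changes of 1.79 and -0.01 on the first 2 scalings. Cks1b and Ccnd3 had 1.44 and -0.38, and 0.93 and -0.56. Genes named here beyond those of the naming rule, such as these 4, were chosen after their values were seen.

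Of 7 genes for CDK inhibitor proteins, 4 are among the listed genes, and all 4 fell. Of these, 1 reached the filter only in the PBS and NP@M libraries. Cdkn2c, which encodes p18 and holds back Cdk4 and Cdk6, stood at 12.1, 12.6 and 13 FPKM with NP@M and 0, 0 and 0.816 FPKM with NP-D@M, with reads in N9 alone of the NP-D@M libraries. Cdkn2d, the gene of p19, fell from 16.5, 15.7 and 16.5 to 0.605, 1.23 and 0.774 FPKM. Cdkn1b, the gene of p27, fell from 6.9, 8.35 and 8.04 to 1.18, 0.939 and 1.39 FPKM. Together the 4 genes held 0.0461 ± 0.00222% of the reads with NP@M and 0.00228 ± 0.000212% with NP-D@M (SD, n = 3).

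Most genes of the transcriptional kinases fell. Of 29 tested genes for transcriptional CDKs and their elongation partners, 1 rose and 22 fell, with medians of -0.91 and -2.47 deposited and on the table scale. They held 0.248 ± 0.00515% of the reads with NP@M and 0.0444 ± 0.00260% with NP-D@M. Of the 23 that reached the filter on both sides 1 rose and 16 fell. Cdk7 (ENSMUSG00000069089, chromosome 13, 100702631 to 100730939), the kinase of TFIIH that also activates other CDKs, stood at 4.96, 4.9 and 5.09 FPKM with NP@M and 0.804, 0.632 and 0.493 FPKM with NP-D@M. The groups were apart, and it was 7.75-fold and 27.6-fold lower (log2 changes -1.87 ± 0.15 and -3.01 ± 0.11, SE; limma adjusted p = 3.12e-07 and 1.36e-10). Cdk9 (ENSMUSG00000009555, chromosome 2, 32705784 to 32713076), the kinase of P-TEFb, which releases paused polymerase, fell from 7.92, 7.7 and 7.11 to 4.03, 3.98 and 4.52 FPKM, 1.82-fold and 6.48-fold lower. Its cyclin gene Ccnt1 fell further, from 5.61, 6.24 and 5.9 to 1.01, 1.52 and 1.3 FPKM, 4.62-fold and 16.5-fold lower. Hexim1, which holds P-TEFb inactive, fell from 4.49, 5.61 and 4.49 to 2.93, 1.3 and 2.61 FPKM (limma adjusted p = 0.00577 on the deposited scale).

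Cdk12 and Cdk13, kinases of long-gene elongation and RNA processing, fell from 2.06, 2.61 and 2.38 to 1.47, 0.764 and 0.914 FPKM and from 3.06, 3.64 and 3.26 to 0.673, 0.43 and 0.607 FPKM. Cdk8, the Mediator kinase, fell from 4.39, 5.04 and 5.97 to 0.654, 0.785 and 1.04 FPKM, and its cyclin gene Ccnc fell from 4.82, 4.92 and 4.85 to 2.35, 2.83 and 2 FPKM. The cyclin L gene Ccnl1 fell from 11, 13.1 and 12.2 to 1.37, 2.32 and 2.11 FPKM, while its relative Ccnl2 stood at 9.98, 9.12 and 10.3 FPKM with NP@M and 16.3, 14.6 and 17.1 FPKM with NP-D@M, with a log2 change of 0.66 deposited and -1.04 on the table scale. Nelfe, a subunit of the negative elongation factor, was the member that rose, from 15.5, 11.4 and 12.7 to 61.6, 52.6 and 59.3 FPKM, but with a limma adjusted p of 0.0462 on the table scale, and the call was lost without N7, without N9 and with N9 alone. Nelfb, another subunit, fell from 15.1, 14.1 and 14.9 to 6.39, 8.47 and 5.39 FPKM.

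**Figure D3:**
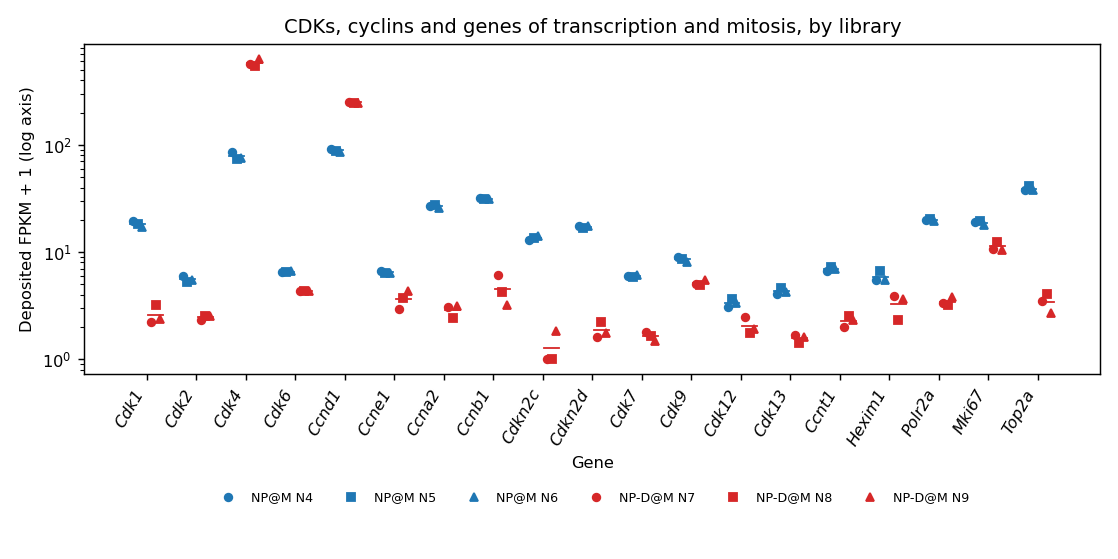
Deposited FPKM + 1 (log axis) of CDKs, cyclins, CDK inhibitors, partners of transcription and 2 proliferation genes, with 1 point per library and a bar at each group mean. Cdk4 stands at 547 to 631 FPKM with NP-D@M above 72.9 to 84.9 with NP@M, and Cdk1 at 1.23 to 2.18 below 16.0 to 18.5.

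For RNA polymerase, the list counts were near those of all genes. Of 40 tested genes for RNA polymerase II and Mediator subunits, 5 rose and 22 fell, and after quantile normalization 13 were called higher and 17 lower. Of the 29 that reached the filter on both sides 5 rose and 11 fell. Polr2a (ENSMUSG00000005198, chromosome 11, 69733997 to 69758637), the largest subunit, fell from 18.7, 19.3 and 18.5 to 2.36, 2.22 and 2.77 FPKM, and Polr2b, the second largest, from 13.1, 13.1 and 13.6 to 1.1, 0.679 and 1.04 FPKM. Polr2f, a small subunit shared by the 3 polymerases, rose from 9.99, 8.62 and 7.39 to 81.8, 71.6 and 109 FPKM. Polr2a was 7.67-fold and 27.4-fold lower and Polr2f 10.1-fold and 2.82-fold higher, deposited and on the table scale. Of 14 genes for polymerases I and III, 0 rose and 7 fell, among the latter Polr1c, from 16.8, 11.8 and 14.7 to 1.46, 3.03 and 1.98 FPKM. Of the 9 that reached the filter on both sides 0 rose and 3 fell.

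Of 51 splicing factors, 6 (11.8%) rose and 25 (49%) fell. All 51 reached the filter on both sides, where 20.3% of all genes rose and 38.4% fell. After quantile normalization 10 were called higher and 32 lower. Their share of the reads was 1.18 ± 0.0314% with NP@M and 0.430 ± 0.0372% with NP-D@M (SD, n = 3). The serine-arginine proteins Srsf5 and Srsf7 fell from 31.9, 34.1 and 34.9 to 4.78, 5.01 and 5.77 FPKM and from 31.9, 37.2 and 39.2 to 3.76, 6.65 and 7.32 FPKM. Most genes of transcription factors fell. Of 603 tested genes with a transcription factor family in the table's own annotation, 23 (3.81%) rose and 462 (76.6%) fell, against 17.5% and 47.7% of all genes. In the largest family, the C2H2 zinc fingers, 2 rose and 210 fell of 248. Many of these genes are low, and 257 of the 603 and 143 of the 248 reached the filter only in the PBS and NP@M libraries. Of the 337 and 100 that reached it on both sides, 22 and 2 rose and 208 (61.7%) and 68 (68%) fell, beside 20.3% and 38.4% of all such genes. Zfp110 fell from 13.3, 13.7 and 12.5 to 1.77, 2.28 and 2.81 FPKM and Zfp622 from 6.47, 7.16 and 6.77 to 0.267, 0.367 and 0.581 FPKM. The exception named by the rule, Zfp978, rose from 3.77, 4.22 and 3.98 to 34.2, 24.7 and 23.5 FPKM, but 76% of its 50-base words are shared with other genes. Enzymes that write or remove histone methyl and acetyl marks had 5 risen and 34 fallen of 58, and 5 and 19 of the 39 that reached the filter on both sides. Kdm3a, a histone demethylase, fell from 8.2, 9.14 and 8.21 to 0.883, 1.58 and 1.17 FPKM, whereas Prmt1, an arginine methyltransferase, rose from 35.5, 31.2 and 37.4 to 349, 367 and 361 FPKM.

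Most genes of mitosis fell and none rose. Of the 40 mitotic genes of the G2/M list, all tested, 0 rose and 31 fell, with medians of -1.25 deposited and -2.85 on the table scale. Their share of the reads was 0.627 ± 0.00970% with NP@M and 0.145 ± 0.00683% with NP-D@M (SD, n = 3). Top2a (ENSMUSG00000020914, chromosome 11, 98992943 to 99024189), the topoisomerase of chromosome separation, stood at 36.7, 40.6 and 36.7 FPKM with NP@M and 2.46, 3.04 and 1.72 FPKM with NP-D@M. It was 15.8-fold and 56.1-fold lower with the groups well apart (log2 changes -3.53 ± 0.14 and -5.04 ± 0.12, SE; limma adjusted p = 5.02e-10 and 1.51e-11). Aurka (ENSMUSG00000027496, chromosome 2, 172356190 to 172370535), a kinase of the spindle poles, fell from 24, 20.6 and 22.9 to 0.329, 1.58 and 0.963 FPKM, 23.5-fold and 83.8-fold lower. Mki67 (ENSMUSG00000031004, chromosome 7, 135689784 to 135716361), the gene of the proliferation marker Ki-67, fell less, from 18, 18.5 and 17 to 9.78, 11.5 and 9.55 FPKM, 1.73-fold and 6.18-fold lower.

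Not every mitotic gene was in step. The 9 members that neither rose nor fell were Foxm1, Cenpa, Spc24, Bub1, Pttg1, Birc5, Cdca3, Racgap1 and Mad2l1. Foxm1, a transcription factor of mitotic genes, stood at 27.7, 25.9 and 27.5 FPKM with NP@M and 82.6, 97.2 and 95.1 FPKM with NP-D@M, with log2 changes of 1.72 deposited and -0.08 on the table scale. Bub1 and Bub1b, paralogs of the spindle checkpoint, differed: Bub1 stood at 12.3, 13.1 and 12 FPKM with NP@M and 37, 39 and 22.4 FPKM with NP-D@M, and Bub1b fell from 25, 22.8 and 20.2 to 17.4, 14.6 and 13.9 FPKM. The 2 NDC80 complex partners Spc24 and Spc25 differed likewise, with log2 changes of 1.72 and -1.30 on the deposited scale. Kinesins, the motors of the spindle and of transport, had 0 risen and 19 fallen of 21, and 0 and 9 of the 11 that reached the filter on both sides. Among the fallen was Kif22, which went from 10.1, 8.12 and 8.54 to 0.826, 0.928 and 1.76 FPKM. Of 9 tubulin genes 0 rose and 5 fell.

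Promoters of mitotic genes are known for a CHR element, which the DREAM and MMB complexes bind, beside CCAAT boxes, which NF-Y binds. The windows upstream of the start of the 3 mitotic genes just described are shown because their genes carry that result, as 150 bases read from RefSeq promoter sequences of GRCm38.p6, 5′ to 3′ on the gene's own strand. Capitals mark CHR (TTTGAA, or TTCAAA on the other strand) and CCAAT (or ATTGG on the other strand). The windows lie at chr11:99024190-99024339 for Top2a, chr2:172370571-172370720 for Aurka and chr7:135716380-135716529 for Mki67, all 3 on the minus strand and ending at or close before the start of the gene model.
Top2a: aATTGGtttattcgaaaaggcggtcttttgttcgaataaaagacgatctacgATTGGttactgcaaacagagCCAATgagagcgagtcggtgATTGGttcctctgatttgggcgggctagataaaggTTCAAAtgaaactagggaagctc
Aurka: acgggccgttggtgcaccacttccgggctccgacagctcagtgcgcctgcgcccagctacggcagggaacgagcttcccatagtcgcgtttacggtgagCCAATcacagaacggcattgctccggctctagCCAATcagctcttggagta
Mki67: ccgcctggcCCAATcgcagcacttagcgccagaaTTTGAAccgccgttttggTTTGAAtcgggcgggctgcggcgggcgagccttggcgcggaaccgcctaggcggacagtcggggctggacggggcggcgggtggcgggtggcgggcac

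Top2a held 1 CHR and 4 CCAAT matches in these bases, Aurka 0 and 2, and Mki67 2 and 1. Over a longer window, from 250 bases before to 50 bases after the start, 21 of the 32 mitotic genes with a RefSeq window held CHR (65.6%) and 24 held CCAAT (75%), beside 14.1% and 43.9% of the 7284 tested genes with a window and 17.9% and 37.4% of all 32851 windows. Of the 25 mitotic genes with a window that fell, 18 held CHR, and of the 7 that did not, 3 did. Across all tested genes the shares hardly differed with the call: CHR was in 12% of the risen and 14.4% of the fallen genes, and CCAAT in 43.3% and 43.9%. E2F sites, searched as TTTGGCGC, TTTCGCGC, TTTCCCGC and TTTGCCGC on both strands, were in 0 of the 32 mitotic windows and 14 of 34 windows of DNA replication genes (41.2%), beside 5.23% of tested genes. The motif shares describe letters in a window and show no binding.

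Of 39 tested genes that act in DNA replication, 5 rose and 15 fell, both below the shares of all genes, with medians of 0.61 deposited and -1.15 on the table scale. Cdt1, which licenses origins, fell from 15.9, 15.7 and 15.3 to 1.9, 3.73 and 1.82 FPKM. Among the replication protein A subunits, the small Rpa3 rose from 40.3, 42.9 and 44.2 to 434, 352 and 378 FPKM while Rpa2 fell from 7.71, 7.62 and 7.45 to 0, 1.11 and 2.08 FPKM, and leaving out N9 took its NP-D@M mean from 1.06 to 0.553 FPKM. Pcna, the sliding clamp, stood at 84.5, 92.8 and 90.3 FPKM with NP@M and 195, 178 and 195 FPKM with NP-D@M, and its log2 change was 1.08 deposited, -0.74 on the table scale and -1.37 after quantile normalization. Mcm2, a helicase subunit, turned in the same way, with 1.05, -0.71 and -0.05. E2f1, the transcription factor of S phase entry, stood at 10.4, 9.12 and 9.57 FPKM with NP@M and 28.3, 35.6 and 45 FPKM with NP-D@M, with log2 changes of 1.78 and 0.05.

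Most p53 targets fell. Of the 28 tested, 1 rose and 19 fell, against 17.5% and 47.7% of all genes, and Cdkn1a, the p21 gene, was among the latter. Of the 21 targets that reached the filter on both sides 1 rose and 13 (61.9%) fell, beside 20.3% and 38.4% of all such genes. Gadd45a, a growth arrest gene, fell from 29.9, 29.2 and 24.6 to 2.77, 2.11 and 3.31 FPKM, and Sesn2, a stress sensor of the mTORC1 pathway, from 15.8, 14.3 and 16.2 to 0.651, 0.317 and 1.47 FPKM. Leaving out N9 took the NP-D@M mean of Sesn2 from 0.814 to 0.484 FPKM. The member that rose was Bax, from 42.5, 37.7 and 40.8 to 187, 167 and 217 FPKM, 4.73-fold deposited and 1.32-fold on the table scale. After quantile normalization the log2 change of Bax was 0.16 and was not called. In DNA damage response and repair, 3 rose and 20 fell of 36, which is near the background, and after quantile normalization 13 were called higher and 13 lower. Of the fallen repair genes 11 reached the filter only in the PBS and NP@M libraries. Of the 25 that reached it on both sides 3 (12%) rose and 9 (36%) fell. Msh6, of mismatch repair, fell from 10.5, 12.4 and 10.5 to 0.896, 0.745 and 1.12 FPKM, and Rnf168, a ubiquitin ligase at breaks, from 3.78, 4.03 and 5.19 to 0.587, 0.371 and 0.655 FPKM. Ercc1 (ENSMUSG00000003549, chromosome 7, 19344778 to 19356524), a subunit of the excision repair nuclease, stood at 23.5, 23.1 and 25.7 FPKM with NP@M and 459, 462 and 499.6 FPKM with NP-D@M. It rose 19.7-fold and 5.51-fold, with the 3 NP-D@M libraries close to each other.

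Genes of apoptosis moved in both directions. On the anti-apoptotic side 0 of 4 rose and 3 fell: Mcl1, a short-lived survival protein, went from 58.9, 66.2 and 61.4 to 9.27, 6.78 and 13.3 FPKM (6.35-fold and 22.7-fold lower), Bcl2l1, the gene of BCL-XL, from 28.9, 26 and 25.8 to 16.2, 11.7 and 14.2 FPKM, and Bcl2 from 2.2, 2.62 and 2.34 to 0.559, 0.662 and 1.01 FPKM. Bcl2l2, the gene of BCL-W, stood at 3.24, 3.9 and 3.77 FPKM with NP@M and 9.58, 8.25 and 9.88 FPKM with NP-D@M, with log2 changes of 1.14 and -0.42. On the pro-apoptotic side 2 of 10 rose and 5 fell, and 2 and 2 of the 7 that reached the filter on both sides. The effectors differed: Bax and Bok rose, as given above, while Bak1 fell from 9.64, 8.84 and 9.55 to 2.47, 3.32 and 2.43 FPKM. Bid, an activator cut by a caspase, fell from 7.49, 7.25 and 6.69 to 0.839, 0.0388 and 0.583 FPKM, and leaving out N7 took its NP-D@M mean from 0.487 to 0.311 FPKM. Bcl2l11, the gene of BIM, fell from 1.73, 2.02 and 2.75 to 0.579, 0.361 and 0.637 FPKM. Among 14 caspases and their partners 1 rose and 9 fell. Apaf1, the scaffold of the apoptosome, fell from 2.77, 3.24 and 3.21 to 0.066, 0.55 and 0.391 FPKM, while Cycs, the gene of cytochrome c, rose from 14.7, 13.4 and 12.7 to 244, 199 and 259 FPKM.

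Most genes of ribosomes and of oxidative phosphorylation rose. Of 81 tested cytosolic ribosomal protein genes, 72 rose and 0 fell, against 17.5% and 47.7% of all genes, and their median log2 change was 2.91 deposited and 1.13 on the table scale. They held 5.97 ± 0.304% of the reads with NP@M and 14.9 ± 1.14% with NP-D@M. Rps29, of the small subunit, rose from 80, 68.7 and 71.7 to 1705, 2176 and 2159 FPKM, 27.4-fold and 7.68-fold. With quantile normalization 38 ribosomal protein genes were called higher and 22 lower, so the direction of the list holds on the 3 scalings but not for each member on the quantile scale. Many ribosomal protein genes have processed pseudogenes.

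Of 80 tested nuclear genes for respiratory chain subunits, 65 rose and 0 fell, with medians of 2.91 and 1.15. Their share of the reads was 0.998 ± 0.0334% with NP@M and 2.38 ± 0.225% with NP-D@M. The 13 messages encoded in the mitochondrial genome had 12 risen and 0 fallen and held 3.89 ± 0.219% and 12 ± 2.74% of the reads. Of them mt-Co3, of complex IV, rose from 21.2, 24.5 and 23.2 to 367, 329 and 362 FPKM and mt-Co2 from 33.5, 39 and 37.2 to 533, 434 and 666 FPKM, though 100% of their 50-base words occur in other genes. With quantile normalization 6 of the 13 were called higher and 1 lower. Mitochondrial ribosomal proteins had 18 risen and 24 fallen of 75, but 43 called higher and 24 lower on the deposited scale and 40 higher and 16 lower after quantile normalization, so the balance of this list turns with the scaling. The small Mrps21 rose from 35.9, 33.3 and 32.1 to 468, 369.5 and 494 FPKM, while Mrps2 fell from 10.6, 10.6 and 11.5 to 0.979, 1.18 and 1.21 FPKM and Mrpl44 had 480, 432 and 336 reads in N4, N5 and N6 and 0, 0 and 3 in N7, N8 and N9.

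Of 61 initiation and elongation factors of translation, 11 rose and 29 fell, which equals the shares of all genes to within 1 percentage point. After quantile normalization 12 were called higher and 42 lower, with a median log2 change of -0.90 beside -0.15 for all tested genes. Eif5a, which relieves stalled ribosomes, rose from 159.7, 148 and 142 to 1573, 1548 and 2018 FPKM, whereas Eif1a, of start codon scanning, fell from 58.5, 64 and 57.9 to 6.45, 14.2 and 7.95 FPKM and Eif2b2, of the exchange factor for eIF2, from 10.6, 9.98 and 9.56 to 1.39, 1.1 and 0.646 FPKM. Among 32 aminoacyl-tRNA synthetases 5 rose and 11 fell. Iars, for isoleucine, fell from 39, 40.3 and 38.4 to 4.07, 5.02 and 4.71 FPKM, and Lars2, for leucine in mitochondria, rose from 7.51, 12.2 and 18.8 to 151, 149.97 and 184 FPKM.

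**Figure D4:**
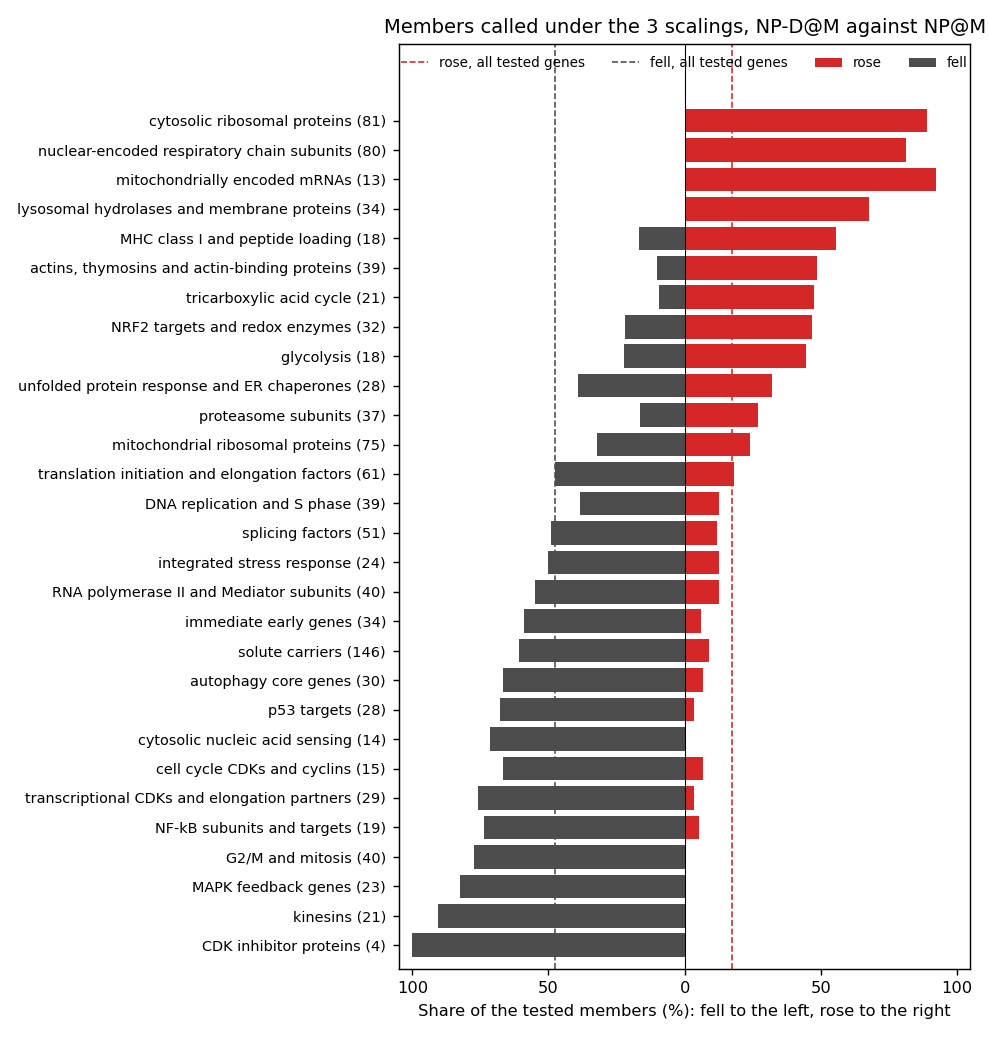
Share of the tested members (%) of 29 gene lists that rose (to the right) or fell (to the left) on the 3 scalings, with the number tested in brackets and dashed lines at the shares of all tested genes, 17.5% and 47.7%. Ribosomal proteins (72 of 81 rose) and respiratory chain subunits (65 of 80 rose) stand at the top, and kinesins (19 of 21 fell) and CDK inhibitors (4 of 4 fell) at the bottom.

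Most lysosomal genes rose. Of 34 tested lysosomal hydrolases and membrane proteins, 23 rose, 0 fell and 11 did neither, of which 9 were called lower on the table scale, with medians of 2.36 and 0.61. Ctsl (ENSMUSG00000021477, chromosome 13, 64359337 to 64370890), a cysteine protease of the lysosome, stood at 178, 183 and 159 FPKM with NP@M and 2531, 2043 and 2281 FPKM with NP-D@M. It rose 13.2-fold deposited and 3.7-fold on the table scale with no overlap. The related proteases Ctsb and Ctsd rose from 64.9, 62.9 and 64.2 to 669, 662 and 664 FPKM and from 77, 72.2 and 75.7 to 715, 686 and 723 FPKM, and Arsb, a sulfatase, from 2.34, 1.9 and 1.51 to 30.6, 30.7 and 28.4 FPKM. Psap, which encodes the saposins, rose from 115, 116 and 122.7 to 1163, 1235 and 1274 FPKM. Npc1 and Npc2, partners in cholesterol export from the lysosome, differed: Npc2 rose from 25.8, 23.2 and 25.2 to 248, 213 and 242 FPKM, and Npc1 stood at 2.55, 3.47 and 3.59 FPKM with NP@M and 3.57, 2.81 and 4.1 FPKM with NP-D@M, called lower only on the table scale (log2 changes 0.10 and -1.32). Of the 17 V-ATPase subunits, which acidify the lysosome, 6 rose and 3 fell. Core autophagy genes had 2 risen and 20 fallen of 30, and 2 and 9 of the 19 that reached the filter on both sides. Becn1 rose from 3.75, 3.74 and 4.05 to 39.3, 33.7 and 36.8 FPKM, whereas Pik3c3, the lipid kinase in the same complex, fell from 7.34, 7.32 and 6.44 to 0.107, 0.895 and 0.491 FPKM, and leaving out N8 took its NP-D@M mean from 0.498 to 0.299 FPKM.

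Of 28 genes of the unfolded protein response and ER chaperones, 9 rose and 11 fell. Calr (ENSMUSG00000003814, chromosome 8, 84841850 to 84846934), the chaperone calreticulin, rose from 112, 109.6 and 107 to 1290.3, 1358 and 1251 FPKM, 11.9-fold and 3.33-fold, while Xbp1, a transcription factor of the response, fell from 23.6, 19.1 and 21.7 to 1.58, 1.19 and 0.638 FPKM. In the integrated stress response 3 rose and 12 fell of 24, which is near the background on the 3 scalings. After quantile normalization 2 were called higher and 18 lower. The median log2 change was then -1.77, beside -0.15 for all tested genes. Atf4 (ENSMUSG00000042406, chromosome 15, 80255184 to 80257541), its main transcription factor, stood at 206, 185 and 190.3 FPKM with NP@M and 25.6, 21.5 and 27.7 FPKM with NP-D@M. It fell 7.76-fold and 27.7-fold with the groups apart (log2 changes -2.91 ± 0.12 and -4.70 ± 0.11, SE; limma adjusted p = 7.32e-10 and 1.03e-11). Phgdh, of serine synthesis, rose from 226, 186 and 212 to 1793, 1735 and 1819 FPKM, with 63% of its 50-base words shared and a log2 change of 0.10 after quantile normalization, not called. Among 21 cytosolic heat shock proteins 2 rose and 10 fell, and Hspa8, the constitutive HSP70, fell from 304, 316 and 349.8 to 51, 57.2 and 40.4 FPKM. The proteasome had 10 risen and 6 fallen of 37, beside 16 called higher and 18 lower after quantile normalization, with Psmb3 of the core rising from 21, 18.4 and 20.7 to 167, 146 and 179 FPKM and the activator Psme4 falling from 6.33, 8.29 and 7.33 to 1.58, 1.04 and 0.741 FPKM.

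Of 34 tested immediate early genes, 2 rose, 20 fell and 12 did neither, with medians of -0.90 and -2.23. On the deposited scale 8 were called higher, the 2 risen among them. Of the 27 that reached the filter on both sides 2 rose and 14 fell. Fos fell from 55.2, 52.4 and 43.3 to 17.9, 12.6 and 18.5 FPKM, beside Fosb above. The partners of the FOS proteins in AP-1 that rose were Jun, from 16.8, 14.6 and 10.5 to 99.5, 95.9 and 151 FPKM, and Junb, from 46.9, 37.8 and 32.7 to 332, 293 and 577 FPKM. Dusp1, a phosphatase of MAP kinases, fell from 38.5, 35.8 and 32.3 to 1.1, 2.61 and 3.16 FPKM. The feedback genes of the MAPK pathway had 0 risen and 19 fallen of 23, and 0 and 12 of the 16 that reached the filter on both sides. Among the fallen were Dusp6 (from 29.8, 32.6 and 30.7 to 1.18, 4.09 and 2.68 FPKM) and Ets2 (from 14.7, 15.4 and 13.3 to 0.515, 0.763 and 0.105 FPKM). Myc fell from 28.4, 28.6 and 26.2 to 13.6, 13.4 and 18.6 FPKM, 1.82-fold and 6.52-fold lower.

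Most targets of YAP and TEAD and of TGF-beta fell, and the filter bore on the count of Wnt targets. Of 17 tested YAP and TEAD targets, 1 rose and 14 fell, and 1 and 12 of the 15 that reached the filter on both sides. Ctgf, a secreted matricellular protein, fell from 36.6, 39.7 and 38 to 3.96, 1.69 and 2.68 FPKM and Amotl2, an inhibitor of YAP, from 14.2, 13.1 and 14.4 to 0.246, 0.679 and 0.31 FPKM. Axl, a receptor tyrosine kinase, rose from 99.9, 97.7 and 94.3 to 531, 521 and 503 FPKM, but its log2 change was 2.40 deposited, 0.58 on the table scale and -0.13 after quantile normalization. Of 14 TGF-beta targets 1 rose and 9 fell, and 1 and 7 of the 11 that reached the filter on both sides. Snai2, a repressor of epithelial genes, went from 13.8, 17.5 and 15.6 to 0.472, 2.18 and 0.542 FPKM. Of 7 Wnt targets 0 rose and 5 fell, but 4 of the fallen reached the filter only in the PBS and NP@M libraries. Of the 3 that reached it on both sides 0 rose and 1 fell. Sox9 of this list went from 2.49, 3.27 and 2.9 to 0.259, 0 and 0.0884 FPKM. Leaving out N8 took the NP-D@M mean of Snai2 from 1.07 to 0.507 FPKM, and without N7 that of Sox9 was 0.0442 in place of 0.116.

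Most genes of innate immune signalling fell and most of those of antigen presentation rose. Of 26 interferon receptors, JAK-STAT members and interferon-stimulated genes, 2 rose and 19 fell. The 16 of them that reached the filter on both sides had 2 risen and 9 fallen. Ifngr1, the ligand-binding chain of the interferon gamma receptor, had 509, 553 and 687 reads in N4, N5 and N6 and 0, 0 and 1 in N7, N8 and N9, and Jak2, a kinase of the same receptor, fell from 7.15, 9.61 and 8.89 to 0.497, 0.959 and 1.55 FPKM. Irf7, a transcription factor of the interferon response, rose from 2.53, 1.99 and 1.7 to 17, 17.6 and 24.9 FPKM and Bst2, the gene of tetherin, from 52.4, 53.9 and 54.5 to 748, 700.4 and 876 FPKM. Of 14 tested genes of cytosolic nucleic acid sensing 0 rose and 10 fell, among them Tbk1 (from 7.93, 9.58 and 7.27 to 0.213, 0.282 and 0.312 FPKM), the kinase that activates IRF3, and Tmem173 (from 9.93, 8.42 and 10.3 to 2.48, 1.56 and 2.75 FPKM), the gene of STING. Of the 11 sensing genes that reached the filter on both sides 0 rose and 7 fell. Of 19 NF-kB subunits and targets 1 rose and 14 fell, and 1 and 8 of the 12 that reached the filter on both sides. Rela, the main activating subunit, fell from 20.7, 16.8 and 18.5 to 7.76, 4.36 and 6.68 FPKM, Nfkb1 from 4.56, 4.78 and 4.83 to 1.01, 0.834 and 0.99 FPKM, and the chemokine gene Cxcl1 rose from 8.48, 7.8 and 6.32 to 79.5, 52.8 and 54.6 FPKM.

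Of 18 genes of MHC class I and peptide loading, 10 rose and 3 fell, with medians of 2.02 and 0.53. H2-D1 (ENSMUSG00000073411, chromosome 17, 35262730 to 35267499), a class I heavy chain, stood at 130.3, 125 and 128 FPKM with NP@M and 1241, 1254 and 1411 FPKM with NP-D@M. It rose 10.2-fold and 2.86-fold, with the groups far apart. Psme1 and Psme2, subunits of the immunoproteasome activator, rose from 22.2, 20.4 and 20.5 to 192, 209 and 210.3 FPKM and from 7.71, 8.36 and 13.4 to 65.4, 87.2 and 81.8 FPKM. Both chains of the peptide transporter fell, Tap1 from 3.28, 3.4 and 3.71 to 0.261, 0 and 0.245 FPKM and Tap2 from 9.41, 8.27 and 9.19 to 7.43, 5.72 and 8.44 FPKM. The groups overlapped for Tap2, whose limma adjusted p was 0.0396 on the deposited scale.

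The antibody named in the title is directed at PD-L1, whose gene is Cd274 (ENSMUSG00000016496, chromosome 19, 29367455 to 29388095). It was low throughout, with 99, 153 and 84 reads in N4, N5 and N6 and 0, 0 and 10 in N7, N8 and N9, or 0.891, 1.43 and 0.746 FPKM and 0, 0 and 0.336 FPKM. The groups did not overlap, and the fall had log2 changes of -0.86 ± 0.16 and -1.49 ± 0.14 (SE; limma adjusted p = 3.00e-04 and 6.72e-07). No fold is given because N7 and N8, the libraries with the most genes at 0, are at 0 and N9 holds all of that group's reads. Whether the 0 values of N7 and N8 arose before deposit was not tested. Of the 13 tested genes for ligands of immune checkpoints and related surface signals, 2 rose and 9 fell. Of these 13, 5 reached the filter only in the PBS and NP@M libraries, and all 5 are among the fallen. Of the 8 that reached it on both sides 2 (25%) rose and 4 (50%) fell, beside 20.3% and 38.4% of all such genes. Nectin2 and Pvr, ligands of TIGIT, fell from 5.93, 5.81 and 6.45 to 0.239, 0.395 and 0.244 FPKM and from 18.4, 18.7 and 17.2 to 3.74, 4.03 and 3.92 FPKM. Cd47, the signal against phagocytosis, fell from 23.5, 26 and 22.5 to 16.8, 15.4 and 13.8 FPKM, and Cd80, a ligand of CD28 and CTLA-4, fell from 4.23, 5.88 and 4.23 to 2.73, 2.31 and 1.71 FPKM. Lgals3, the gene of galectin-3, rose from 115, 112 and 117 to 629, 614 and 842 FPKM, with a log2 change of -0.05 after quantile normalization. Hmgb1, a chromatin protein that acts as a danger signal outside cells, fell from 12.5, 14.1 and 14 to 7.42, 4.31 and 4.32 FPKM.

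Of 21 genes of the tricarboxylic acid cycle 10 rose and 2 fell, with Mdh2 at 76.8, 72.5 and 74 FPKM with NP@M and 1027, 1089 and 1073 FPKM with NP-D@M and Idh2 rising from 24.7, 22.3 and 20.6 to 276, 246 and 295 FPKM, while Aco1, the cytosolic aconitase, fell from 9.38, 10 and 9.39 to 2.01, 1.53 and 2.71 FPKM. In glycolysis 8 rose and 4 fell of 18, but after quantile normalization 7 were called higher and 9 lower, with a median of -0.20. Pkm rose from 286, 262 and 274 to 2828, 2832 and 3017 FPKM, and Slc2a1, the glucose transporter gene, fell from 18.7, 20.1 and 21.3 to 2.24, 2.71 and 2.36 FPKM. Aldoa rose from 148, 142 and 146 to 979, 998 and 1148 FPKM but had a log2 change of -0.09 after quantile normalization. Of 32 NRF2 targets and redox enzymes 15 rose and 7 fell, with the peroxiredoxin gene Prdx5 rising from 26.9, 25 and 25.4 to 426, 351 and 546 FPKM and Taldo1, of the pentose phosphate pathway, from 48.3, 38.4 and 45.7 to 748, 688 and 803 FPKM, in libraries where Nfe2l2 itself fell.

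Of 146 solute carriers 13 rose and 89 fell, and 13 and 51 of the 98 that reached the filter on both sides. The amino acid transporters Slc38a2 and Slc1a5 fell from 59.6, 68.3 and 62.1 to 5.08, 5.8 and 4.42 FPKM and from 57.8, 54.2 and 56.7 to 4.05, 7.2 and 6.19 FPKM, and the mitochondrial carrier Slc25a39 rose from 44.4, 39 and 42.4 to 411, 429 and 502 FPKM. Cholesterol synthesis and its SREBP2 targets had 1 risen and 10 fallen of 21, with Insig1, which retains SREBP in the endoplasmic reticulum, falling from 53.5, 54.6 and 54.7 to 4.74, 5.08 and 6.3 FPKM and Sqle, squalene epoxidase, from 25.2, 28.2 and 26.1 to 1.7, 3.01 and 2.39 FPKM. Rab GTPases of vesicle traffic had 4 risen and 19 fallen of 34: Rab5c, of early endosomes, rose from 30.5, 25.9 and 28.7 to 446, 366 and 510.4 FPKM, and Rab9, of late endosomes, fell from 14.4, 16.5 and 14.8 to 0.817, 1.89 and 0.766 FPKM. Nucleoporins had 1 risen and 12 fallen of 18, with Nup153 falling from 14.3, 16.1 and 14.7 to 0.832, 1 and 0.937 FPKM. Ubiquitin-conjugating enzymes had 2 risen and 14 fallen of 29, ABC transporters 4 and 8 of 20, high mobility group proteins 2 and 2 of 9, and host genes of small nucleolar RNAs 3 and 1 of 12.

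Of 39 actins, thymosins and actin-binding proteins 19 rose and 4 fell. Cfl1, the gene of cofilin, rose from 110.3, 99 and 95 to 1885, 1883 and 2283 FPKM, and Tmsb10, a thymosin that binds actin monomers, from 109, 106 and 93.1 to 2153, 1621 and 3007 FPKM, with 44% of its 50-base words shared. Actb, often used as a reference gene, stood at 423, 428 and 439.7 FPKM with NP@M and 714, 782 and 836 FPKM with NP-D@M, and its log2 change was 0.85 deposited, -0.98 on the table scale and -2.23 after quantile normalization. Gapdh, another common reference gene, stood at 55.6, 18.3 and 21 FPKM with NP@M and 395, 5.24 and 609 FPKM with NP-D@M, and its limma adjusted p was 0.274 deposited and 0.892 on the table scale. N8 lay below and N7 and N9 above all 3 NP@M libraries for Gapdh. Leaving out N9 took its NP-D@M mean from 336 to 199.99 FPKM, and without N4 its NP@M mean was 19.6 in place of 31.6. Of 26 collagens and mesenchymal genes 4 rose and 10 fell, with Col1a2 falling from 53.4, 53.4 and 56.1 to 7.94, 8.75 and 11 FPKM and Col18a1 rising from 2.69, 2.59 and 2.43 to 19.3, 19 and 28.3 FPKM. Of 12 integrins 3 rose and 1 fell: Itgb7 rose from 56.5, 50.2 and 52 to 535, 529 and 616 FPKM, and Itga5, the fibronectin receptor chain, fell from 11.6, 12.8 and 11.2 to 1.79, 0.922 and 1.56 FPKM.

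Markers of other cells could be read only in part. None of the 8 retinal markers and none of the 5 T and B cell markers is listed in the table used here. Of 11 colon epithelial markers 2 are listed, Krt18 and Krt20, so the labelled tissue cannot be checked on the rest; Epcam, Cdh1 and Vil1 are not among the listed genes. Krt20 rose, from 7.83, 9.28 and 8.90 to 80.5, 71.3 and 82.0 FPKM, and Krt18 stood at 7.42, 7.09 and 6.16 FPKM and at 5.97, 1.73 and 5.68 FPKM. Of 8 fibroblast markers 6 are listed and 4 were tested, all of which fell. The 6 listed summed to 70.6 to 73.1 FPKM with NP@M and 11.1 to 13.1 FPKM with NP-D@M. The untested Dcn had means of 0.0544 and 0.355 FPKM with NP@M and NP-D@M, and the untested Pdgfra 0.536 and 0.372. Of 7 myeloid markers 4 are listed and 3 were tested, of which 0 rose and 1 fell. The 4 listed summed to 10 to 10.6 FPKM and to 12.5 to 24.8 FPKM, and Ptprc, the pan-leukocyte gene, had 0 reads in 5 of the 6 libraries and 9 in N8. Of 4 endothelial markers 2 are listed and 0 reached the filter. The part of these markers in the gene groups above was not tested.

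For RNAs that lack a poly(A) tail, the filter decided most of what was tested. Of 38 tested replication-dependent histone genes, 34 reached 1 FPKM in 3 libraries only in the NP-D@M and NP-D@MP libraries, and so did all 29 tested small nuclear RNAs of the table's annotation, so that no count of risen members is read for them. All 49 histone genes of the table together held 0.00922 ± 1.99e-05% of the reads with NP@M and 0.0103 ± 0.00129% with NP-D@M (SD, n = 3). Hist1h4h, for histone H4, had 0.139, 0.646 and 0.205 FPKM with NP@M and 20.3, 15 and 11.9 FPKM with NP-D@M. Without N5 its NP@M mean was 0.172 FPKM in place of 0.330, and histone copies share sequence. The tested small nuclear RNAs together had 12 to 42 reads in the NP@M libraries and 2055 to 3012 in the NP-D@M libraries. Of 26 tested small nucleolar RNAs 7 rose and 7 fell, but the filter bore on both counts. It was reached only in the NP-D@M and NP-D@MP libraries by 3 of the risen. Only in the PBS and NP@M libraries was it reached by 6 of the fallen. Of the 10 that reached it on both sides 4 rose and 1 fell. Snora17, which guides a modification of ribosomal RNA, went from 1.23, 4.09 and 2.44 to 1702, 2286 and 2623 FPKM. Snord72 went from 14.1, 24.2 and 23.4 FPKM to 0 reads in all 3 NP-D@M libraries. Whether small RNAs were captured alike in both groups was not tested. Of 660 processed pseudogenes 318 rose and 58 fell, and of the 361 that reached the filter on both sides 189 and 23 did, while of 8912 protein-coding genes 1302 rose and 4620 fell.

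The direction of change ran with the length of the gene model. In the shortest 10% of the tested genes, 56 to 912 bases, 47.9% rose and 9.79% fell, and the median log2 change was 1.70 deposited and 0.60 on the table scale. In the longest 10%, 9306 to 41155 bases, 3.37% rose and 67.5% fell, with medians of -0.64 and -1.78. Within protein-coding genes alone the shortest 10%, 204 to 1705 bases, had 41.7% risen and 22.8% fallen, and the longest 3.36% and 67.6%. Among protein-coding genes, the median risen gene had a model of 2689 bases with 6 exons and stood at 12.1 FPKM with PBS. The median fallen gene had 5115 bases and 9 exons and stood at 4.52 FPKM.

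GC content moved with the change as well, while the relation of the change to level did not run in a single direction. In the 10% of tested genes with the lowest GC content the median log2 change was -0.70 deposited and -1.88 on the table scale, and in the highest it was 0.57 and -0.78. In the 10% of genes with the highest level in PBS, a group outside the comparison, 44.6% rose and 21.9% fell. In the lowest 10%, up to 1.07 FPKM, 32% rose and 13.4% fell, with median log2 changes of 0.89 deposited and 0.18 on the table scale. Genes below 1 FPKM in all PBS libraries passed the filter through other groups. In the 10% next above the lowest, up to 1.77 FPKM, 6.34% rose and 62.5% fell. The median gene model was 1734 bases for the tested ribosomal proteins, 1631 for respiratory chain subunits and 556 for replication-dependent histones, beside 3980 for all tested genes. It was 5039 for the transcriptional CDKs and their partners, 4798 for the mitotic genes, 4865 for the Zfp genes and 7276 for the kinesins. Lysosomal genes, with a median of 3708 bases, and genes of the tricarboxylic acid cycle, with 3988, were near the middle. The part of length in these results was not tested.

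**Figure D5:**
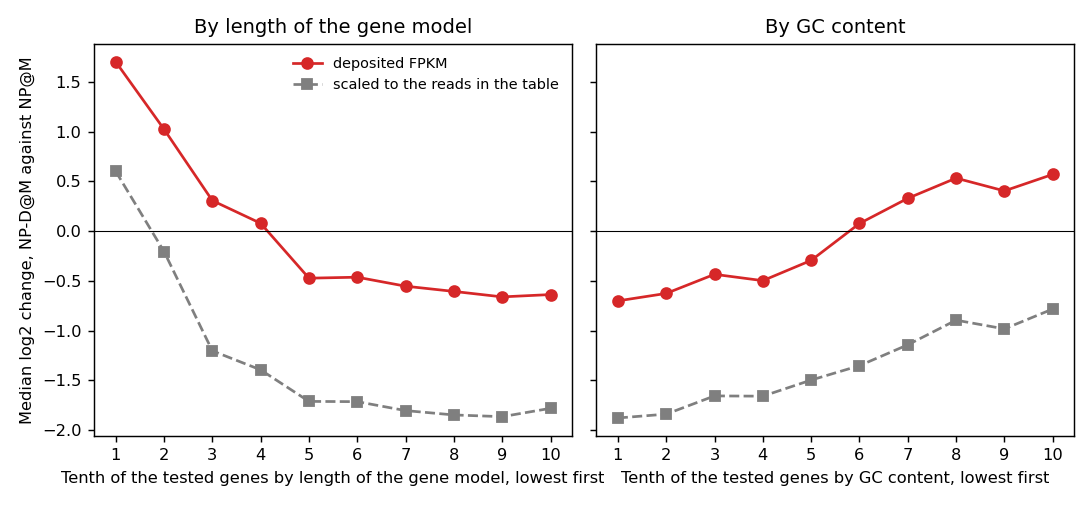
Median log2 change of NP-D@M against NP@M in 10 equal bins of the tested genes, ordered by gene length on the left and by GC content on the right, deposited and on the table scale. The shortest bin lies at 1.70 and 0.60 and the longest at -0.64 and -1.78.

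The other pair of groups, NP-D@MP against PBS, shares no library with the comparison above. By the letters of the labels, that pair differs in NP, M and P as well as in D, so it is not a repeat of the same contrast. There 1771 genes rose and 4777 fell by the same rule. Of the 1765 genes that rose here, 1594 (90.3% of these and 90.0% of those) also rose there, and of the 4815 that fell 4588 (95.3% and 96.0%) also fell. None rose here and fell there or the reverse. Across the 10101 genes, which are not independent replicates, the log2 changes of the 2 pairs correlated at r = 0.983. A limma interaction test of the difference between the 2 changes called 3 genes (0.0297%), while 616 had an unadjusted p under 0.05, and it called 4 genes on the table scale and 4 scaled to a common median ratio.

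Leaving out N9 moved that count. Without N9 it called 48 genes, 11 with a larger and 37 with a smaller log2 change here, without N7 it called 7 and with N9 alone in its group 7. The 3 genes were Zgpat, a zinc finger gene with a G-patch domain, and the predicted genes Gm24837 and Gm11461, which have reads in PBS alone and in NP-D@MP alone and passed the filter through that group, so that their calls say nothing of NP-D@M or NP@M. The level of Zgpat stood at 1.65, 1.37 and 1.46 FPKM with NP@M and 1.88, 1.84 and 1.69 FPKM with NP-D@M, with log2 changes of 0.17 here and -0.80 for NP-D@MP against PBS. Cdk4 had log2 changes of 2.89 here and 2.79 there, Cdk1 of -2.84 and -3.07, and Atf4 of -2.91 and -2.95.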

How the data were processed

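The authors deposited 1 table of FPKM values for 12584 genes, with gene lengths and coordinates. Per the submitters' processing notes, Bowtie 0.12.2 and the mm8 build were used, yet 12580 identifiers are in GENCODE M21 of GRCm38 and 12113 have identical coordinates there. The gene counter, the strand setting and the origin of the library sizes are not given in the sources used here, so overlapping and antisense genes are uncertain. FPKM multiplied by gene length was a whole multiple of 1 step per library for 100% of values (relative tolerance 1e-06), which gave whole reads.

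limma 3.58.1 in R 4.3.3 was fitted to log2(FPKM + 1) of all 12 libraries, with a mean per group, for the 10101 genes with at least 1 FPKM in at least 3 libraries, and p-values were adjusted by Benjamini-Hochberg over all of them. The fits on the deposited and table scales were run on simulated data in which few genes changed. A shift as broad as the present one was not simulated. The members, the 56 gene lists and the tests were chosen with earlier results of these data known. The naming rule took the 12 largest rises and falls on the table scale, up to 3 members of each list, and genes fixed by name. The rises and falls had groups apart and at least 5 FPKM and 100 reads in the higher group. Predicted loci, symbols ending in Rik or -ps, and those starting with Snor, Rnu, Scarna, Mir, mt-, Hist, Rpl, Rps or Mrp were left out of them. Some genes that this rule takes are not reported here. Alternatives were quantile normalization, leaving out the filter or asking for a mean of 5 FPKM or more, pseudocounts of 0.1 and 0.5, trend and robust settings, only 6 libraries, an adjusted p under 0.01, a log2 change of at least 1, limma voom on the reads (also with TMM-type factors) and leaving out each library. N9 alone in its group, lists without each NP-D@M library, and lists of genes reaching the filter both in PBS with NP@M and in NP-D@M with NP-D@MP, were chosen after seeing the data. Intervals between libraries cover the spread of 3 libraries a group.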

Additional observations from a re-analysis of the deposited data

Results flagged for a closer look

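In 3 genes the change with NP-D@M against NP@M differed from that of NP-D@MP against PBS by the limma interaction test on the deposited FPKM. Zgpat had a difference in log2 change of 0.973 ± 0.125 (SE; limma Benjamini-Hochberg adjusted p = 0.0270), with 1.65, 1.37 and 1.46 FPKM for NP@M and 1.88, 1.84 and 1.69 for NP-D@M, beside 2.30, 2.37 and 2.18 for PBS and 0.737, 1.06 and 0.873 for NP-D@MP. The predicted small nucleolar RNA Gm24837 had a difference of 1.547, with 5, 5 and 4 reads in the PBS libraries and 0 in the 9 others, so its part in NP-D@M against NP@M is a change of 0. The pseudogene Gm11461 had a difference of -1.557, with 7, 6 and 4 reads in the NP-D@MP libraries and 0 in the 9 others. Both small genes passed the filter only through the group that holds their reads, so the test of their difference is not independent of the filter and nothing is read from it.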

How the results depend on the processing

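No paired analysis was possible because the library numbers N1 to N12 run through the groups and none is shared between groups. With a mean of at least 5 FPKM, fewer genes were tested and the calls of lower genes were 1381 on the deposited scale, 2831 on the table scale, 1401 at a common median ratio and 1381 on all 3, and the interaction test called 0. Asking also for a log2 change of at least 1 left 2864 lower on the deposited scale, 914 higher on the table scale, 2956 lower at a common median ratio, and 914 risen and 2864 fallen on all 3. The interaction test called 6 genes with no filter, 9 with a pseudocount of 0.1, 7 with N9 alone in its group, and 2 to 48 without 1 library each, with 48 without N9, 7 without N7 and 5 without NP-D@MP library N11; the cause was not tested. Leaving out 1 library moved the risen genes between 1647 and 1768 and the fallen between 4639 and 4757. It moved the deposited calls between 4059 and 4238 higher and 4639 and 4757 lower, those at a common median ratio between 3985 and 4157 and 4729 and 4828, and those on the table scale between 1647 and 1768 and 7033 and 7108. The log2 changes of named genes that turned were, on the table scale, those of Actb (-0.98), Ccnd1 (-0.33), Mcm2 (-0.71), Pcna (-0.74) and Zgpat (-0.98). After quantile normalization they were those of Actb (-2.23), Aldoa (-0.093), Axl (-0.13), Ccnd1 (-0.99), Hmgn1 (-0.032), Lgals3 (-0.048), Mcm2 (-0.054) and Pcna (-1.37). On the deposited scale, without 1 library each, 1133 of 1134 changes of named genes kept their direction and their side of the threshold and 1 passed it. After quantile normalization the log2 changes of Bax (0.16), Cdk12 (-0.14), Hexim1 (-0.47) and Phgdh (0.098) were no longer called. By quantile normalization 1600 of the risen genes were called higher and 58 lower, and 3756 of the fallen were called lower and 14 higher. A gene at 0 reads with NP-D@M is below about 3 reads, or up to 0.414 FPKM for a 1 kb gene, a floor that covers counting error only.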
